A study of Mus musculus with 6 samples.

Results

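A set of 10 genes of cellular iron handling was followed in cultured mouse fetal liver macrophages of 2 genotypes, wild-type and deficient in Ahrr, which encodes the repressor of the aryl hydrocarbon receptor (AhR). The members are Tfrc, Slc11a2, Slc11a1 and Steap3 for iron entry, Fth1 and Ftl1 for storage, Slc40a1 for export, Hmox1 for the release of iron from haem, and Ireb2 and Aco1 for control. They were chosen by symbol from a list of known iron genes, and all 10 were among the 16111 genes with identifiers and among the 11408 genes with enough counts to be tested. The list was drawn up with results of these data known, so the number of members that changed is a description and not a test of iron handling as a group.

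The study held 3 wild-type libraries and 3 libraries from AhRR-/- fetuses, all labelled C57BL/6 RCC and E13.5 (embryonic day), with mice numbered 1 to 3 within each genotype. Cells of both groups had grown for 5 weeks in RPMI medium with 10% fetal calf serum and 2% GM-CSF, a growth factor for macrophages, and only non-adherent cells were sequenced. The libraries therefore describe a long-kept culture and not the fetal liver itself, and the labels do not say whether a mouse number stands for 1 fetus or a pool, nor how the allele was made, so p-values measure the spread between these samples. Library totals ran from 3556106 counts in Ahrr-deficient replicate 1 to 41668336 counts in Ahrr-deficient replicate 2. Ahrr itself fell in the Ahrr-deficient libraries, from a mean of 4.74 ± 0.53 to 2.01 ± 0.71 counts per 1000000 counts of the library (CPM; SD, n = 3). The log2 fold change was -1.21 with SE 0.26 and an adjusted p of 0.0151 by edgeR, and reads of the gene remained in each Ahrr-deficient library. Its edgeR adjusted p was 0.0631 without wild-type replicate 1 and 0.0502 without wild-type replicate 3.

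Macrophages take up iron bound to transferrin through the transferrin receptor, reduce it in the endosome and pass it to the cytosol, where ferritin stores the excess and ferroportin sends the rest out of the cell. They also recover iron from the haem of engulfed red cells through haem oxygenase. Much of this is set after transcription: the iron regulatory proteins, encoded by Aco1 and Ireb2, bind a hairpin called the iron-responsive element when iron is scarce. Binding near the start of ferritin and ferroportin mRNAs blocks their translation, and binding behind the coding sequence of transferrin receptor mRNA protects it from decay.

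The element is shown first, because it is what links several of these genes in the cell. Transcripts of GENCODE M21 (GRCm38) were searched on the sense strand for an unpaired C, 5 bases, the loop CAGTGN and 5 more bases that pair with the 5 before the loop, G with T allowed. The motif lay in 191 of 10563 tested genes with a protein-coding transcript (1.81%) and in 4 of the 10 members, Fth1, Ftl1, Slc40a1 and Tfrc. A form with the loop CAGAGN and the same pairing lay in 1.72% of those tested genes and occurred once more in Tfrc. The search asked for all 5 pairs and no extra base, so an element of another form would be missed. A member without a match, Slc11a2 among them, is therefore not shown to lack an element. Each window below is 29 bases of the sense strand, 5′ to 3′, with the 6 loop bases in capitals.
Fth1 5′ UTR, chr19:9982732-9982760 (+): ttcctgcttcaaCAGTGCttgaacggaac
Ftl1 5′ UTR, chr7:45459779-45459807 (-): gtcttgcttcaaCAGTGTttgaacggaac
Slc40a1 5′ UTR, chr1:45925465-45925493 (-): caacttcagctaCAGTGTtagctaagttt
Tfrc 3′ UTR, chr16:32631160-32631188 (+): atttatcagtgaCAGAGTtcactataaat
Tfrc 3′ UTR, chr16:32631219-32631247 (+): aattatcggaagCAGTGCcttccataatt
Tfrc 3′ UTR, chr16:32631598-32631626 (+): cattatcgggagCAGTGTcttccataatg
Tfrc 3′ UTR, chr16:32631663-32631691 (+): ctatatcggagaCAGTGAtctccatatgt
Tfrc 3′ UTR, chr16:32631710-32631738 (+): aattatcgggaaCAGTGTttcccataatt

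The windows of Fth1 and Ftl1 were identical at 26 of 29 positions. In the reference transcripts the element began 93 bases from the 5′ end in Fth1, 84 in Ftl1 and 96 in Slc40a1, in each case ahead of the coding sequence. The 5 elements of Tfrc began between 3262 and 3812 bases from the 5′ end, all behind the coding sequence, which ended at base 2429. A match to these letters is a description of the sequence and no measure of binding.

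**Figure D1:**
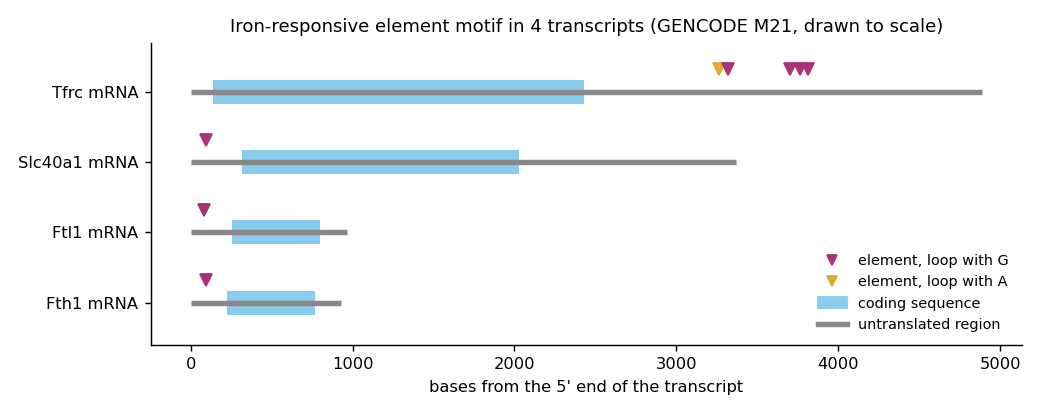
Position of the iron-responsive element motif (triangles) along the reference transcripts of Fth1, Ftl1, Slc40a1 and Tfrc, in bases from the 5′ end, with the coding sequence as a box. The single elements of the ferritin and ferroportin transcripts lie between base 84 and base 96, and the 5 of Tfrc lie behind its coding sequence.

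In Ahrr-deficient cells 5 of the 10 members (50%) passed the threshold of an edgeR adjusted p of 0.05, and they did not share a direction. Slc11a1, Slc40a1 and Fth1 fell, while Tfrc and Ireb2 rose. Slc11a2, Steap3, Ftl1, Hmox1 and Aco1 did not pass. Over all 11408 tested genes 19.6% passed, 9.62% higher and 9.95% lower. With 1 library left out, 2 members passed without wild-type replicate 1, wild-type replicate 2 or Ahrr-deficient replicate 3, where 6.07%, 8.15% and 10.3% of the genes tested in those fits passed. There were 3 members past the threshold without wild-type replicate 3 or Ahrr-deficient replicate 2, against 9.35% and 8.31% of tested genes, and 5 without Ahrr-deficient replicate 1, against 32.6%. The median log2 fold change of the members was -0.03, against 0.01 over all tested genes, and it was 0.04 without Ahrr-deficient replicate 1. All log2 fold changes below are Ahrr-deficient over wild-type, and in these bulk libraries fewer cells of a kind and less RNA per cell cannot be told apart.

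**Figure D2:**
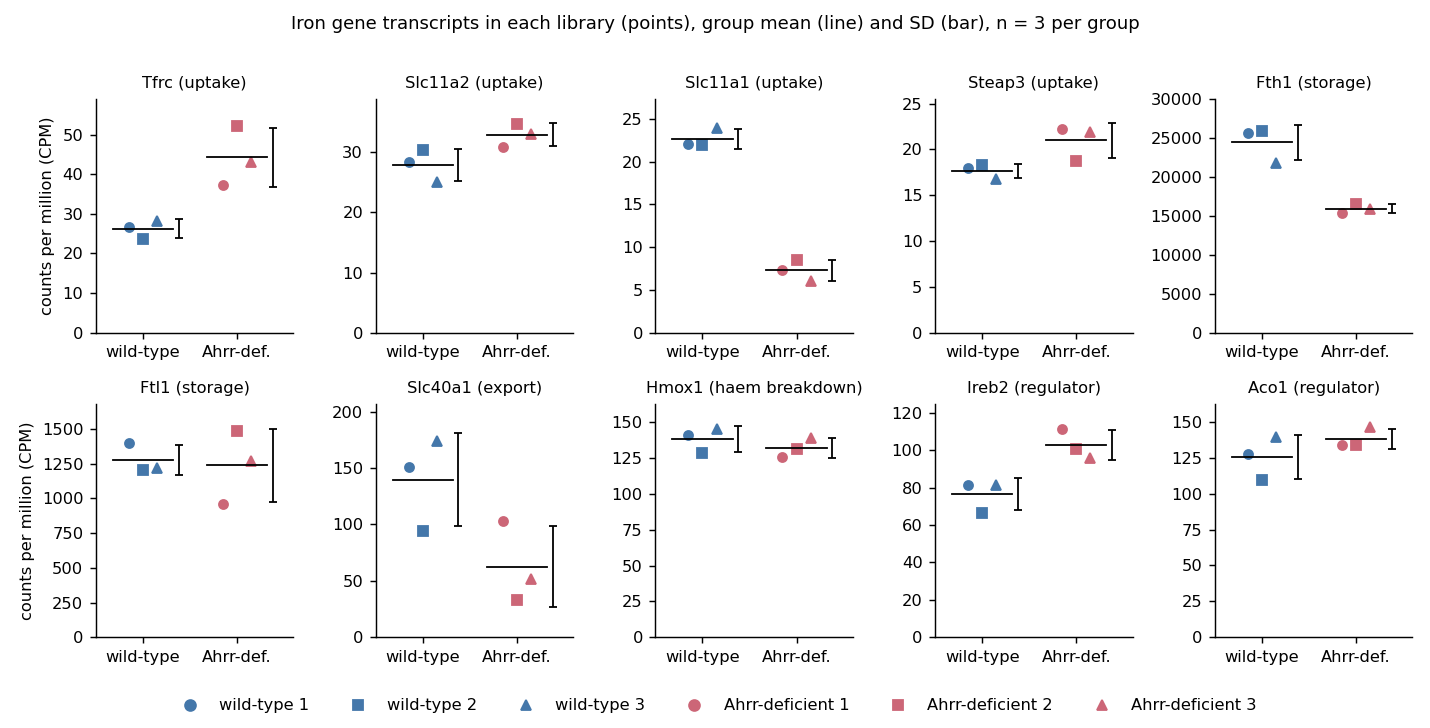
CPM of the 10 iron genes in each library, with each axis starting at 0; points are libraries, lines are group means and bars are SD (n = 3). The groups lie apart for Slc11a1, with 21.9 to 24.0 CPM in wild-type against 6.07 to 8.52 CPM in Ahrr-deficient libraries, and intermix for Ftl1.

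Slc11a1 (ENSMUSG00000026177.11, chromosome 1, 74375195 to 74386062, plus strand), also known as Nramp1, encodes the transporter that carries iron and manganese out of the phagosome of macrophages. C57BL/6 mice are known to carry a variant of it that leaves them prone to certain intracellular infections. Its level was 22.1, 21.9 and 24.0 CPM in wild-type replicates 1, 2 and 3, against 7.31, 8.52 and 6.07 CPM in the same order of Ahrr-deficient libraries. Every wild-type library lay above every Ahrr-deficient library, and the spread within each group was small beside the gap between them. The mean fell from 22.6 ± 1.1 to 7.30 ± 1.23 CPM (SD, n = 3). In edgeR this was a log2 fold change of -1.66 (a fitted 3.15-fold difference) with SE 0.14 and an adjusted p of 6.59e-04. The lowest count was 26, in the shallowest library. Slc11a1 kept its call in all 13 alternatives, with log2 fold changes between -1.87 and -1.55.

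Slc11a2 (ENSMUSG00000023030.16, chromosome 15, 100387898 to 100425072, minus strand), also known as Dmt1, encodes the relative of Slc11a1 that moves iron out of the endosome. It stood at 28.4, 30.3 and 25.1 CPM in the wild-type libraries, against 30.9, 34.8 and 33.1 CPM in the AhRR-/- ones. The Ahrr-deficient values were a little higher, and the log2 fold change of 0.17 (95% interval -0.10 to 0.44, edgeR adjusted p 0.338) did not pass. An exon of Gm5475 overlaps Slc11a2 on the opposite strand, and whether strand was used in counting is not given in the sources used here. In wild-type libraries there were 0.777, 0.723 and 0.955 Slc11a1 counts for each Slc11a2 count, and in Ahrr-deficient libraries 0.236, 0.245 and 0.183.

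Tfrc (ENSMUSG00000022797.15, chromosome 16, 32608920 to 32632794, plus strand) encodes the transferrin receptor, the main entry route for iron and the transcript with the 5 elements printed above. It was at 26.8, 23.6 and 28.3 CPM in the wild-type libraries, against 37.4, 52.2 and 43.2 CPM in the AhRR-/- ones. All 3 Ahrr-deficient libraries exceeded the highest wild-type library, and they were more spread. The mean rose from 26.2 ± 2.4 to 44.3 ± 7.5 CPM (SD, n = 3). The log2 fold change was 0.71 (a fitted 1.63-fold difference) with SE 0.12 and an adjusted p of 0.00645 by edgeR. Tfrc kept its call in all 13 alternatives, between 0.56 and 0.79.

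Tfrc is known to be high in dividing cells, so a list of 12 proliferation genes was read beside it. Of these, 3 rose, 0 fell and 9 did not pass, so that 25% passed in either direction against 19.6% of all tested genes. All 3 calls were rises, and 9.62% of all tested genes were called higher. The log2 fold change was above 0 for 11 of the 12, against 5811 of 11408 tested genes. The median log2 fold change of the list was 0.46, against 0.01 over all tested genes. Top2a, a topoisomerase, rose by a log2 fold change of 1.27, Ccnb1, a mitotic cyclin, by 0.88, and the cell cycle marker Mki67 by 0.72. Top2a overlaps Gm23451 on the same strand. Of 13 alternatives, Top2a passed in 10, Mki67 in 7 and Ccnb1 in 5. The groups overlapped for Mki67 in CPM, also after TMM scaling. In the fits that each left out 1 library the number past the threshold ran from 0, without wild-type replicate 1, wild-type replicate 2 or Ahrr-deficient replicate 3, to 7 without Ahrr-deficient replicate 1. The part of proliferation in the level of Tfrc was not tested.

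Steap3 (ENSMUSG00000026389.16, chromosome 1, 120190757 to 120272705, minus strand) encodes the endosomal reductase that prepares iron for Slc11a2. Its values were 18.0, 18.3 and 16.8 CPM in the wild-type libraries, against 22.2, 18.8 and 21.9 CPM in the AhRR-/- ones. The log2 fold change was 0.15 (95% interval -0.13 to 0.43, edgeR adjusted p 0.430). Of the 4 entry genes, then, 1 rose, 1 fell and 2 did not pass.

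Fth1 (ENSMUSG00000024661.6, chromosome 19, 9980598 to 9985098, plus strand) encodes the ferritin heavy chain, the subunit that oxidises iron for storage. Its transcript was one of the most abundant of these cells, at rank 3 or 4 by counts in every library. It took 2.56%, 2.59% and 2.19% of the counts in wild-type replicates 1, 2 and 3 and 1.53%, 1.66% and 1.59% in Ahrr-deficient replicates 1, 2 and 3. The groups did not overlap, and the Ahrr-deficient libraries lay close together. The mean fell from 24457 ± 2259 to 15931 ± 611 CPM (SD, n = 3). In edgeR this was a log2 fold change of -0.70 (a fitted 1.62-fold difference) with SE 0.13 and an adjusted p of 0.00860. The direction held in all 13 alternatives, between -0.81 and -0.60. The call was lost without wild-type replicate 1 (edgeR adjusted p 0.0791), wild-type replicate 2 (edgeR adjusted p 0.0688) or Ahrr-deficient replicate 3 (edgeR adjusted p 0.0637).

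Ftl1 (ENSMUSG00000050708.16, chromosome 7, 45457944 to 45459884, minus strand) encodes the ferritin light chain, the subunit that helps the iron core form in the same shell. It was at 1398, 1207 and 1221 CPM in the wild-type libraries, against 959, 1486 and 1270 CPM in the AhRR-/- ones. The lowest and the highest of the 6 values both belonged to Ahrr-deficient libraries, replicates 1 and 2. The log2 fold change was -0.12 (95% interval -0.47 to 0.24, edgeR adjusted p 0.623), so that interval reaches neither the size of the Fth1 fall nor a rise of the size seen for Tfrc. Without Ahrr-deficient replicate 1 it was 0.02. Whether Fth1 and Ftl1 differ in their change was not tested.

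The ratio of the ferritin transcripts is given as a description, with no test. In wild-type libraries there were 18.3, 21.4 and 17.9 Fth1 counts for each Ftl1 count, against 16.0, 11.1 and 12.5 in Ahrr-deficient libraries. The groups did not overlap, with Ahrr-deficient replicate 1 nearest to wild-type. Ferritin genes have processed copies, and the table held 2 copies of Fth1 and 3 of Ftl1. Their summed counts were at most 0.0141% of those of Fth1 and at most 0.184% of those of Ftl1 in any library, but reads of near-identical copies could be shared or dropped in counting. An exon of Gm10252 also overlaps Ftl1 on the opposite strand, and an exon of Gm22133 overlaps it on the same strand.

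Tfrc and Fth1, 1 entry gene and 1 storage gene that passed in opposite directions, were also set against each other and do not stand for the other entry and storage genes. There were 1.04, 0.914 and 1.30 Tfrc counts for every 1000 Fth1 counts in wild-type replicates 1, 2 and 3. In Ahrr-deficient replicates 1, 2 and 3 there were 2.44, 3.15 and 2.72. The mean was 2.55 times as high in Ahrr-deficient cells, and the groups did not overlap. A ratio shows unequal change of its 2 genes, and no p is given because the genes were chosen with their values known.

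**Figure D3:**
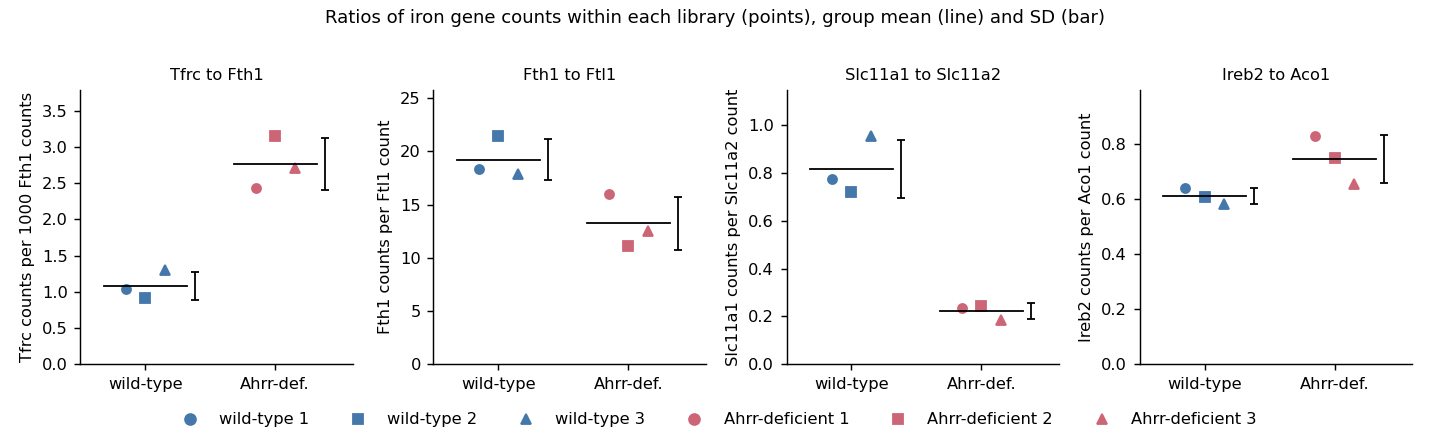
Ratios of counts within each library for 4 pairs of iron genes, with axes starting at 0; points are libraries, lines group means and bars SD (n = 3). Tfrc counts per 1000 Fth1 counts lie between 0.914 and 1.30 in wild-type and between 2.44 and 3.15 in Ahrr-deficient libraries.

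Slc40a1 (ENSMUSG00000025993.10, chromosome 1, 45908068 to 45926523, minus strand) encodes ferroportin, the known exporter of iron from the cell. Its SD was the largest relative to the mean among the members in both groups, with 151, 94.4 and 174 CPM in the wild-type libraries, against 103, 33.1 and 51.9 CPM in the AhRR-/- ones. Ahrr-deficient replicate 1 lay above wild-type replicate 2, so the groups overlapped in CPM, while they lay just apart after TMM scaling. The mean fell from 140 ± 41 to 62.6 ± 36.1 CPM (SD, n = 3). The log2 fold change was -1.31 (a fitted 2.48-fold difference) with SE 0.36 and an adjusted p of 0.0362 by edgeR. The direction held in all 13 alternatives, between -1.84 without Ahrr-deficient replicate 1 and -0.96 without Ahrr-deficient replicate 2. DESeq2 did not call it (DESeq2 adjusted p 0.0989). The edgeR adjusted p was 0.117, 0.0575 and 0.107 without wild-type replicates 1, 2 and 3, and 0.0842 and 0.127 without Ahrr-deficient replicates 2 and 3.

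Hmox1 (ENSMUSG00000005413.8, chromosome 8, 75093621 to 75100589, plus strand) encodes haem oxygenase 1, the inducible enzyme that opens haem and frees its iron. It is also known as a target of the stress regulators NRF2 and BACH1. It stood at 141, 128 and 145 CPM in the wild-type libraries, against 126, 131 and 139 CPM in the AhRR-/- ones. These values intermixed, and the log2 fold change was -0.14 (95% interval -0.30 to 0.02, edgeR adjusted p 0.202).

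The 2 regulators differed in their calls. Ireb2 (ENSMUSG00000032293.8, chromosome 9, 54863789 to 54912530, plus strand) encodes iron regulatory protein 2, which is degraded when iron is plentiful. It was at 81.6, 66.7 and 81.3 CPM in the wild-type libraries, against 111, 101 and 95.7 CPM in the AhRR-/- ones, without overlap. The mean rose from 76.5 ± 8.5 to 103 ± 8 CPM (SD, n = 3). In edgeR this was a log2 fold change of 0.34 (a fitted 1.27-fold difference) with SE 0.09 and an adjusted p of 0.0293. The direction held in all 13 alternatives, but the edgeR adjusted p was 0.100, 0.115 and 0.0912 without wild-type replicates 1, 2 and 3, and 0.0729 and 0.0517 without Ahrr-deficient replicates 2 and 3.

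Aco1 (ENSMUSG00000028405.9, chromosome 4, 40143081 to 40198338, plus strand) encodes the cytosolic aconitase that becomes iron regulatory protein 1 when it loses its iron-sulphur cluster. It was at 127, 110 and 140 CPM in the wild-type libraries, against 134, 134 and 146 CPM in the AhRR-/- ones. The groups overlapped, and the log2 fold change was 0.07 (95% interval -0.12 to 0.25, edgeR adjusted p 0.590). There were 0.640, 0.609 and 0.582 Ireb2 counts per Aco1 count in wild-type and 0.830, 0.752 and 0.654 in Ahrr-deficient libraries.

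**Figure D4:**
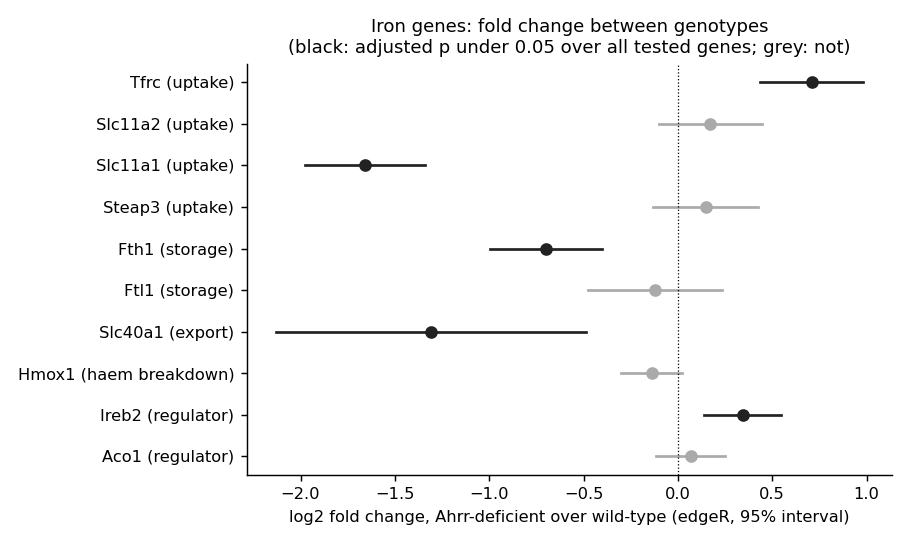
Log2 fold change of each iron gene, Ahrr-deficient over wild-type, from edgeR with its 95% interval; black marks an adjusted p under 0.05 over all tested genes and grey the rest. Slc11a1 (-1.66), Slc40a1 (-1.31) and Fth1 (-0.70) lie to the left of 0, and Tfrc (0.71) and Ireb2 (0.34) to the right.

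Across the members, 6 of 10 had groups that did not overlap in CPM, against 36.6% of all tested genes. They were Slc11a1, Fth1, Tfrc, Ireb2, Slc11a2 and Steap3. After TMM scaling the count was again 6, against 38.8% of all tested genes, but Slc11a2 and Steap3 then overlapped, and Slc40a1 and Hmox1 no longer did.

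Levels of different members were compared as CPM per kilobase of the exons of basic GENCODE M21 transcripts. In wild-type cells the order was Fth1 (15698 ± 1450), Ftl1 (1318 ± 110), Hmox1 (88.2 ± 5.7), Slc40a1 (41.5 ± 12.1), Aco1 (32.8 ± 4.0), Ireb2 (13.3 ± 1.5), Slc11a1 (9.75 ± 0.49), Tfrc (5.05 ± 0.46), Slc11a2 (4.87 ± 0.46) and Steap3 (3.13 ± 0.13 CPM per kilobase; SD, n = 3). Neighbours in this order lay apart except Slc40a1 with Aco1 and Tfrc with Slc11a2, whose libraries overlapped. In Ahrr-deficient cells Slc11a1, at 3.14 ± 0.53 CPM per kilobase, came last, with libraries that overlapped those of Steap3 at 3.72 ± 0.34. Tfrc, at 8.52 ± 1.44, lay above Slc11a2, at 5.74 ± 0.34, without overlap. Aco1, at 36.0 ± 1.8, came before Slc40a1, at 18.6 ± 10.7, without overlap, while Slc40a1 overlapped Ireb2, at 17.8 ± 1.4.

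The promoters of the members were searched for the core of the AhR response element, GCGTG, on both strands, since Ahrr encodes a repressor of AhR. RefSeq windows (GRCm38.p6) of 250 bases before to 50 bases after a gene start were at hand for 7 members, in 12 windows. Slc11a2, Slc40a1 and Hmox1 had no entry. The core lay in 6 of these 12 windows, of 5 genes, against 32.4% of all 32851 windows. For Slc11a1 and Tfrc, the members that kept their calls in all 13 alternatives, windows of 25 bases of the gene's strand are printed. The core is in capitals, and CACGC is the core read from the opposite strand. Distances run from the first base of the core to the RefSeq start. The Slc11a1 core therefore spans that start, and it lies inside the gene by the GENCODE position given above.
Slc11a1, 2 bases before the start, chr1:74375191-74375215 (+): gatgggaaggGCGTGggttcccact
Tfrc, 117 bases before its first start, chr16:32608769-32608793 (+): cagccaatcgCACGCgctctcccga
Tfrc, 64 bases before its first start, chr16:32608822-32608846 (+): ctactccgcgCACGCactggctgcg
Tfrc, 134 bases before its other start, chr16:32608978-32609002 (+): ccttcagaagGCGTGcggagcgcgg
Tfrc, 42 bases before its other start, chr16:32609070-32609094 (+): cgtggtcctcGCGTGgcgggcggac

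Ftl1, Fth1 and Steap3, which include members that did not pass, also had the core in a window. The core of the NRF2 element, TGANNNNGC on either strand and without overlap with GCGTG in these windows, lay in 3 of the 12 windows, those of Slc11a1, Steap3 and Aco1, against 41.3% of all windows. A match in a promoter is no measure of binding.

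A further 5 lists of iron and haem genes set the members in their pathway. Together 51 of their 64 genes were tested, and 19 (37.3%) passed, 7 higher and 12 lower in Ahrr-deficient cells, against 19.6% of all tested genes, 9.62% higher and 9.95% lower. Their median log2 fold change was -0.10, and by list it was -0.10 for other iron transport, -0.17 for haem uptake and breakdown, -0.11 for haem synthesis, -0.05 for mitochondrial genes and 0.00 for regulators. Where a count of alternatives is given for a gene named below, it kept its direction in all of them.

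Among other genes of iron transport, chaperones and ferritin turnover, 9 of 18 were tested, 2 rose, 2 fell and 5 did not pass. The share that passed was 44.4%, against 19.6% of all tested genes. Cp, the copper enzyme ceruloplasmin that oxidises exported iron, was at 3.92, 2.54 and 4.90 CPM in the wild-type libraries, against 5.91, 18.2 and 12.9 CPM in the AhRR-/- ones. Its log2 fold change was 1.77 (adjusted p 0.00858 by edgeR, SE 0.33), it missed the threshold only without wild-type replicate 1 among the 13 alternatives, and an exon of Hps3 overlaps it on the opposite strand. Trf, the gene of transferrin, fell from 170 ± 14 to 108 ± 17 CPM (SD, n = 3; log2 fold change -0.75, SE 0.12, edgeR adjusted p 0.00618) and kept its call in all 13 alternatives. An exon of Gm20425 overlaps Trf on the same strand. Slc39a14, a metal importer of the cell surface, rose by a log2 fold change of 0.78. Slc22a17, the receptor for lipocalin 2, had -0.53, and both genes passed in 8 of 13 alternatives. Slc39a14 lost its call when any 1 library except Ahrr-deficient replicate 1 was left out. Slc22a17 lost it without wild-type replicate 1 or 3, without Ahrr-deficient replicate 2 or 3, and after thinning to the smallest library. Ncoa4, which guides ferritin to the lysosome for iron release, had a log2 fold change of -0.10 (adjusted p 0.490 by edgeR, SE 0.10). Steap1, Steap2, Steap4, Ftmt, Heph and Hephl1 were not analysed here.

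Among genes of haem uptake, breakdown and export, 9 of 10 were tested, 0 rose and 2 fell. In either direction this is 22.2% of those tested against 19.6% of all tested genes and near the background. Both calls were falls, and 9.95% of all tested genes were called lower. Flvcr2, a transporter of the haem exporter family, fell from 167 ± 14 to 126 ± 22 CPM (SD, n = 3; log2 fold change -0.49, edgeR adjusted p 0.0246) and passed in 8 of 13 alternatives, losing its call when any 1 library except Ahrr-deficient replicate 1 was left out. Slc46a1, a carrier of haem and folate with 4.11 CPM in wild-type and 2.20 CPM in Ahrr-deficient cells, had a log2 fold change of -0.98; it falls below the count limit for named genes and is given to account for the second call. Hmox2, the constitutive haem oxygenase, and Blvrb, a biliverdin reductase, did not pass, with log2 fold changes of -0.25 and -0.42. In the fits that each left out 1 library the number past the threshold ran from 0, without wild-type replicate 1, wild-type replicate 2 or Ahrr-deficient replicate 2, to 5 without Ahrr-deficient replicate 1.

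Haem synthesis had 8 of 9 genes tested, of which 1 rose and 3 fell, so that 50% passed against 19.6% of all tested genes. Alas1, the rate-limiting enzyme outside red cells, had a log2 fold change of 0.31, while the later enzymes Uros, Ppox and Urod had -0.54, -0.48 and -0.41. Ppox passed in 10 of 13 alternatives, Urod in 5, and Alas1 and Uros in 4. Urod, Alas1 and Uros lost their calls when any 1 library except Ahrr-deficient replicate 1 was left out. They also lost them after thinning and with the replicate block. Ppox lost its call without wild-type replicate 1 or 3 or Ahrr-deficient replicate 3. Ppox overlaps B4galt3, and Alas1 overlaps 4930500F10Rik, on the opposite strand. No gene of this list passed without wild-type replicate 1, wild-type replicate 3 or Ahrr-deficient replicate 3. Alas2, the red cell form, was too low to be tested.

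All 16 genes of mitochondrial iron import and iron-sulphur cluster assembly were tested, and 1 rose and 3 fell, which is 25% against 19.6% of all tested genes and near the background. Iscu, the scaffold on which the clusters are built, was at 76.1, 78.6 and 63.3 CPM in the wild-type libraries, against 41.1, 39.3 and 42.3 CPM in the AhRR-/- ones, without overlap. Its log2 fold change of -0.92 (adjusted p 0.00310 by edgeR, SE 0.12) was past the threshold in all 13 alternatives. Slc25a28, an iron importer of the inner membrane also called mitoferrin 2, had a log2 fold change of -0.63 and passed in 10 of 13. Hscb, a co-chaperone of the scaffold, had -0.61 and passed in 6. Hscb lost its call when any 1 library except Ahrr-deficient replicate 1 was left out, after thinning and with the replicate block. Slc25a28 lost it without wild-type replicate 1, wild-type replicate 2 or Ahrr-deficient replicate 3. With 1 library left out, the list had 1 gene past the threshold without wild-type replicate 1, wild-type replicate 2 or Ahrr-deficient replicate 3, and 2 without wild-type replicate 3 or Ahrr-deficient replicate 2.

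Of 11 regulators of iron and haem genes 9 were tested, and 3 rose, 2 fell and 4 did not pass. The share that passed was 55.6%, against 19.6% of all tested genes. Mafg, a small partner of NRF2 and BACH1, rose from 48.0 ± 1.1 to 82.3 ± 16.9 CPM (SD, n = 3; log2 fold change 0.72, SE 0.13, edgeR adjusted p 0.00842) and passed in all 13 alternatives. The hypoxia factors moved in opposite directions: Hif1a had a log2 fold change of 0.46 and passed in 11 of 13, and Epas1 had -0.47 and passed in 8. Hfe, a partner of the transferrin receptor that is altered in hereditary iron overload, had -0.53 and passed in 8. Hif1a lost its call without wild-type replicate 1 or 2. Epas1 lost it without those, without Ahrr-deficient replicate 2 or 3, and with the replicate block. Hfe lost it when any 1 library except Ahrr-deficient replicate 1 was left out. Hif1a overlaps Gm15283 on the opposite strand and Gm49321 on the same strand, and Mafg overlaps Sirt7 on the same strand. The third rise, that of Spic, a factor of red pulp macrophages at 0.954 CPM in wild-type and 2.27 CPM in Ahrr-deficient cells, lies below the count limit for named genes. Nfe2l2, the gene of NRF2, and Bach1 did not pass, with log2 fold changes of -0.14 and 0.00. Hamp and Hjv were not analysed here.

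Since ferritin, ferroportin and haem oxygenase genes are known NRF2 targets, 9 targets outside iron handling were read beside them. Of 7 tested, 2 rose, 1 fell and 4 did not pass, so that 42.9% passed against 19.6% of all tested genes. The median log2 fold change was 0.38, against 0.01 over all tested genes. The cystine transporter gene Slc7a11 was at 16.2, 15.6 and 18.9 CPM in the wild-type libraries, against 41.3, 67.3 and 29.2 CPM in the AhRR-/- ones (log2 fold change 1.42, SE 0.27, edgeR adjusted p 0.00915). It missed the threshold only without wild-type replicate 1 among the 13 alternatives. Txnrd1, a thioredoxin reductase, had a log2 fold change of 0.71 and passed in 10 of 13, and Gsr, glutathione reductase, had -0.53 and passed in all 13. Txnrd1 lost its call when any 1 wild-type library was left out, and 1 gene of this list passed without wild-type replicate 1.

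**Figure D5:**
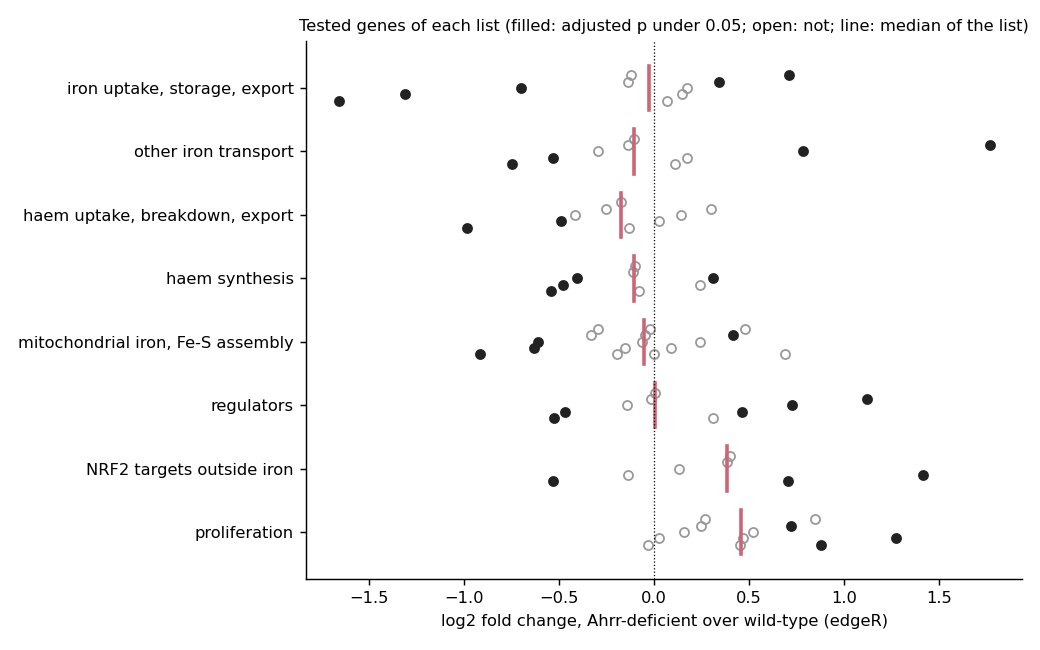
Log2 fold changes, Ahrr-deficient over wild-type, of the tested genes of the 10 members and of 7 further lists; filled points have an edgeR adjusted p under 0.05, open points do not, and the line is the median of the list. Calls lie on both sides of 0 in every list except haem uptake, breakdown and export, where both lie to the left, and proliferation, where all 3 lie to the right.

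The labelled cell type and other cells of the fetal liver were checked by markers. All 8 macrophage markers were in the table, with Lyz2 highest at 12440 to 22740 CPM. Their summed level was 21829 to 27080 CPM in wild-type and 15069 to 22592 CPM in Ahrr-deficient libraries, which overlapped. Of the 8, all tested, 2 fell, Csf1r and Cd14, and the rest did not pass. The log2 fold change was below 0 for all 8, against 5597 of 11408 tested genes. It was -1.66 for Cd14, -0.65 for Csf1r, -0.46 for Lyz2, -0.39 for Mertk and -0.37 for Cd68. For Adgre1, Fcgr1 and Itgam it was -0.35, -0.26 and -0.11. Over all tested genes 19.6% passed and 9.95% were lower. Red cell precursors hold much iron and Tfrc, and their markers were read as well. Of 12 erythroid markers 10, every globin gene listed among them, matched none of the 16111 identified genes and were not analysed here. Klf1 was at most 0.420 CPM. Epor, which red cell precursors use to sense erythropoietin, was at 13.2 to 22.1 CPM in wild-type and 2.64 to 4.78 CPM in Ahrr-deficient libraries, and fell. The part of these levels in the results for the iron genes was not tested. Of 8 hepatocyte markers 2 were listed, with a sum of at most 1.13 CPM, of 9 neutrophil markers 3, with at most 2.7 CPM, of 6 mast cell markers 0, and of 5 megakaryocyte markers 1, Itga2b, with at most 3.01 CPM, which fell. The part of the macrophage marker levels in the fall of Slc11a1, Slc40a1 and Fth1 was not tested.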

How the data were processed

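Raw counts per gene and a normalized signal were deposited by the authors for 6 libraries of polyA RNA read as single 75 bp reads. The authors' normalized signal is the count divided by a size factor, and whole reads were recovered for 100% of its values (tolerance 1e-06), which match the raw table's features of at least 10 counts. The submitters' processing notes name STAR 2.7.10b, fastp 0.20.0, DESeq2 1.40.2 and mm10; annotation and strand setting are not given in the sources used here. Features with under 10 counts over the 6 libraries, absent from the normalized signal, held at most 0.0511% of counts and entered library totals. The floor of 3 counts was 0.0720 to 0.844 CPM; reads carry no molecular identifiers, so it covers counting error only.

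Counts were tested with edgeR 4.0.16 (quasi-likelihood, TMM, filterByExpr, genotype only, two-sided, Benjamini-Hochberg over 11408 genes), after tests on simulated data. SE comes from the fold change and F. Positions are from GENCODE M21, which matched 16094 of 16111 identifiers. Named list genes are up to 4 per list past the threshold with the largest change and a mean of at least 50 counts. Of these, 1 gene is not reported here. Members, lists and tests were chosen with earlier results of these data known, and the ratios of Slc11a1 to Slc11a2 and Ireb2 to Aco1 after their values were seen. Alternatives were RLE and upper-quartile factors, no filter, DESeq2 1.42.0, a minimum mean of 50 counts, thinning to the smallest library, a replicate block, and each library left out.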

Additional observations from a re-analysis of the deposited data

How the results depend on the processing

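All 13 alternatives were planned. Of 688 recomputed values, 506 kept their side of the threshold or stayed within 1.5 times (counts) or 1 SD of the list's genes (medians). No called value changed sign, while 6 values without a call did: Ftl1 and the members' median without Ahrr-deficient replicate 1, and the regulators' median in 4 alternatives. The cause of the other changes was not tested. Genes past the threshold numbered 2232, against 1243 after thinning to the smallest library, 1390 with the replicate block, and 694 to 3857 with 1 library left out. Upper-quartile factors gave 933 higher and 1301 lower, against 1097 and 1135. Same-numbered libraries did not deviate together (correlations -0.17, 0.07 and 0.13) and not every library correlated best with its own number; with the replicate block Ireb2 had an edgeR adjusted p of 0.0504 and 4 members passed.

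Members past the threshold ran from 2 to 5 with 1 library left out. Haem synthesis had 2 genes past it with DESeq2 or no filter, 1 after thinning or with the replicate block, and 0 to 4 with 1 library left out. Haem uptake had 1 with the replicate block and 0 to 5 with 1 library left out. Mitochondrial genes had 2 after thinning or with the replicate block and 1 to 6 with 1 library left out. Other iron transport ran from 1 to 6, regulators from 1 to 6 (3 with the replicate block), NRF2 targets from 1 to 4, and proliferation from 0 to 7 (1 after thinning, 2 with DESeq2, the block or a mean of at least 50 counts). Depth limits genes under about 1 CPM most in Ahrr-deficient replicate 1.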

Other observations

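Epor, the erythropoietin receptor gene and an erythroid marker, was at 17.5, 13.2 and 22.1 CPM in wild-type and at 4.78, 2.64 and 4.35 CPM in Ahrr-deficient libraries (log2 fold change -2.44, SE 0.25, edgeR adjusted p 0.00113), while the listed globin genes were not analysed here. It was singled out after its values were seen.

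The iron-responsive element motif with G in the loop occurred in 191 tested genes. Of these 42 (22.0%) passed the threshold, 17 higher and 25 lower, against 19.6% of all tested genes, and their median log2 fold change was 0.04. With A in the loop 46 of 182 genes (25.3%) passed, 18 higher and 28 lower.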
